A study of Homo sapiens with 6 samples.

Results

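*ATF7* and the genes of its AP-1 partner factors were described in RNA-seq libraries of HaCaT cells, a human keratinocyte line that grows without limit in culture. The genes were *ATF7*, *ATF2*, *JUN*, *JUNB*, *JUND*, *FOS*, *FOSB*, *FOSL1*, *FOSL2* and *BATF3*, found by their symbol in the deposited table. Of these 10 genes, 9 were among the 12499 genes of the table and all 9 passed the filter on low counts. *BATF3* has no row and was not analyzed here. Infection lasted 48 hours, with a lentivirus that carried the human *ATF7* coding sequence (LV-*ATF7*) or with a lentivirus that served as control (LV-NC), and both groups were then kept in high glucose for 24 hours. There were 3 libraries per group, 6 in all, and no library from uninfected cells or from normal glucose was analyzed here. The sources used here do not say whether replicates were separate cultures, so p-values measure the spread between these libraries, which may be technical.

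AP-1 is a pair of basic leucine zipper (bZIP) proteins bound to DNA. JUN proteins pair with each other or with FOS proteins, whereas FOS proteins need a JUN partner. ATF2 and ATF7 are close relatives that pair with each other or with JUN, and stress-activated kinases phosphorylate several of these proteins. JUN-FOS pairs favor the TPA response element (TRE), and pairs with ATF2 or ATF7 favor the longer cAMP response element (CRE). In epidermis, AP-1 genes are known for their part in wound repair, in the stress response and in the differentiation genes of the upper layers.

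The promoters are shown because these factors are known to act on each other's genes. RefSeq promoters of GRCh38.p14, from 250 bases before to 50 after each start, were found for 7 of the 10 genes, with 3 start sites for *ATF7*. Both strands were searched for TGACGTCA (the CRE), TGANNTCA (CRE-like, which takes in the CRE), TGANTCA (the TRE) and TGACG (the first 5 bases of the CRE, which also lie in every CRE). The letters TGACG were found for 7 of the 7 genes and in 24.6% of all 35116 promoters of this length. For *ATF7* they lay before 1 of its 3 start sites. A CRE-like match was found for 2 genes, *JUN* and *JUND*, and in 11.5% of all promoters. The CRE itself was found for *JUND* (1.85% of all promoters) and the TRE for *FOSL2* (7.71%). The windows below hold 30 bases each, written 5′ to 3′ on the strand of the gene, and capitals mark the matched letters.
*JUN*, CRE-like, chr1:58784096-58784125 (minus strand): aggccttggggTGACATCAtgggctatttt
*JUND*, CRE, chr19:18281804-18281833 (minus strand): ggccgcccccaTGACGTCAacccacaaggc
*JUND*, CRE-like, chr19:18281658-18281687 (minus strand): aacgggggcggTGAGCTCAtcgcgccgagc
*FOSL2*, TRE, chr2:28392851-28392880 (plus strand): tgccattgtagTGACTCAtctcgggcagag
*FOS*, first CRE bases, chr14:75278752-75278781 (plus strand): tggttgagcccgTGACGtttacactcattc
*FOSB*, first CRE bases, chr19:45467924-45467953 (plus strand): gcaaggggcgggTGACGtaagcaggggggc
*JUNB*, first CRE bases, chr19:12791337-12791366 (plus strand): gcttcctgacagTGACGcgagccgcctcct

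In *JUN* the match began 67 bases before the start, with the letters of the element through which JUN and ATF2 are known to act on this gene. The *FOS* and *FOSB* matches began 64 and 60 bases before the start. *FOS*, *FOSB* and *JUNB* also held TATAAA on the gene's own strand, 33, 30 and 31 bases before the start, as did 7.33% of all promoters. None of the 7 genes held a CArG box, the element of serum response factor, in these windows, and 1.29% of all promoters did. A match describes the letters of the reference and is not a measured binding site.

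Total counts ranged from 16686472 to 20562768 per library. Expression is given as CPM (counts scaled by library size and TMM factor), and differences as log2 fold changes of the libraries labeled LV-*ATF7* over those labeled LV-NC, tested by the quasi-likelihood method of edgeR and adjusted by Benjamini-Hochberg over 12462 genes. A gene is said to be called at an adjusted p under 0.05. LV-NC replicate 1 stood apart, with a chi-square per gene of 76.2 and 68.4 against the other LV-NC libraries, where other pairs of replicates gave 2.86 to 10.5. The difference between the groups was broad: 67.6% of all genes tested were called, 34.7% higher and 32.9% lower in LV-*ATF7* by the labels, and the groups did not overlap for 72.7%.

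Of the 9 genes, 6 were called. *JUNB* and *FOSL2* were higher in the libraries labeled LV-*ATF7*, and *ATF7*, *JUN*, *FOSB* and *FOSL1* were lower. The groups did not overlap for these 6 genes and overlapped for *ATF2*, *JUND* and *FOS*. Both counts, 66.7% of the 9, were close to the shares over all genes. The median log2 fold change was -0.08 over the 9 genes and 0.00 over all genes tested. Without LV-NC replicate 1, 7 of the 9 were called, as were 80.1% of all genes tested, and *FOS* was the gene added.

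**Figure D1:**
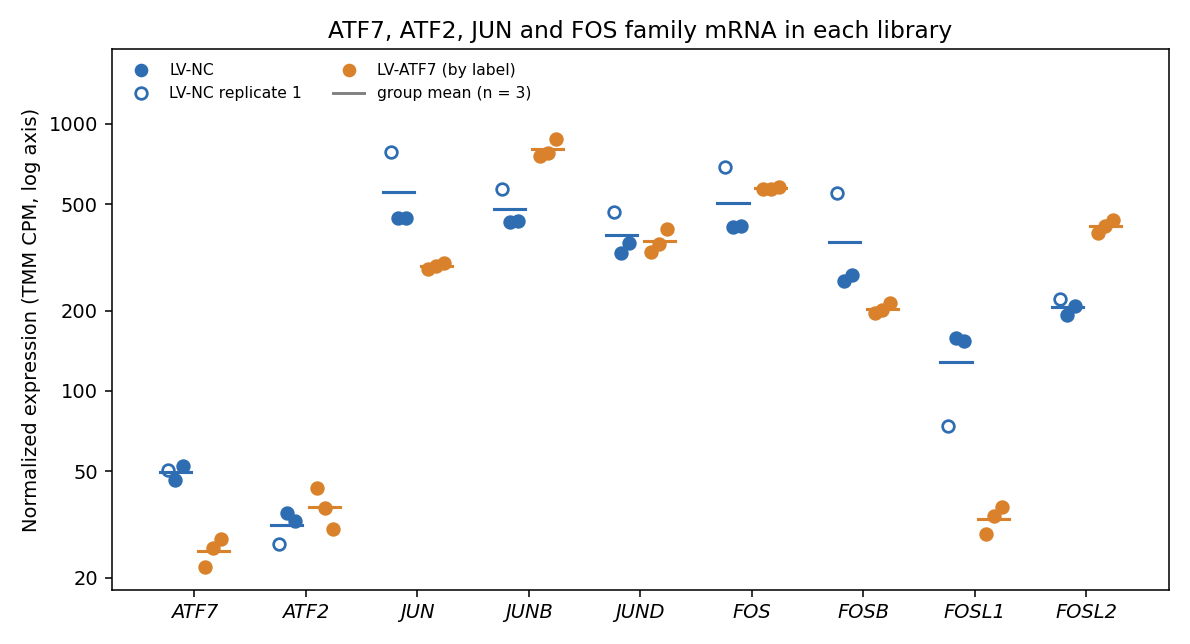
Normalized expression (TMM CPM, log axis) of the 9 genes in each of the 6 libraries, with points for libraries, open points for LV-NC replicate 1 and lines for group means (n = 3). *JUN*, *FOS*, *FOSB* and *FOSL1* show LV-NC replicate 1 away from the other LV-NC libraries, while *ATF7* and *FOSL2* do not.

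*ATF7* was read first, as the gene the lentivirus carried. By label, the LV-NC libraries had 50.6, 46.5 and 52.2 CPM, and the LV-*ATF7* libraries 21.9, 25.7 and 28.0 CPM. Every library labeled LV-*ATF7* was thus below every library labeled LV-NC. The means were 49.8 ± 2.98 and 25.2 ± 3.09 CPM (SD, n = 3 each), and the log2 fold change was -0.98 (standard error 0.12, 95% interval -1.26 to -0.70, adjusted p = 1.89e-04 by edgeR). The gene carried by the lentivirus was therefore lower in the libraries that carry its name. The study's qRT-PCR and Western blots of *ATF7* after infection were not analyzed here. Thus libraries are named by their label throughout and every direction given rests on labels that *ATF7* goes against. Leaving out LV-NC replicate 1 gave -0.99.

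The *ATF7* count is a limited reading of the insert. In GRCh38 (GENCODE release 29) *ATF7*, ENSG00000170653, spans 53507856 to 53626410 of chromosome 12 and is read from the minus strand. Positions of the other genes are from the same annotation. The exons of *ATF7* cover 7980 bases, of which 1536, or 19.2%, are coding, and the insert held coding sequence alone. Of these coding bases, 94.3% also lie in exons of other annotated genes, and how such reads were counted is not given in the sources used here. The reading of lentiviral against cellular *ATF7* was not tested.

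Genes next to *ATF7* on chromosome 12 were not called lower. Of 14 listed neighbors, 11 were tested and 3 were called, all of them higher in the libraries labeled LV-*ATF7*. Over all genes tested, 67.6% were called. *ATP5MC2*, a subunit gene of mitochondrial ATP synthase, had a log2 fold change of 1.07 (adjusted p = 7.47e-05), and *SP1*, a general transcription factor, had 0.70 (adjusted p = 2.52e-04). *PRR13* had 0.54 (adjusted p = 0.00719, each by edgeR). Without LV-NC replicate 1, 5 neighbors were called, 4 higher and 1 lower, beside 80.1% of all genes tested. The lower one was *ESPL1*, the separase gene, whose log2 fold change was -1.44 without that library and -0.98 with it (adjusted p = 0.110 with it).

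*ATF2*, the closest relative of *ATF7* (chromosome 2, 175072250 to 175168382, minus strand), did not pass the test. It had 26.7, 34.8 and 32.7 CPM in LV-NC and 43.2, 36.5 and 30.4 CPM in LV-*ATF7*, and the groups overlapped. Its log2 fold change was 0.22 (95% interval -0.14 to 0.59, adjusted p = 0.24). The log2 ratio of *ATF7* to *ATF2*, per exon length, was 0.20 ± 0.25 in LV-NC and -1.01 ± 0.43 in LV-*ATF7* (SD, n = 3 each). The ratio was lower in all 3 libraries labeled LV-*ATF7*, with p = 0.10 by an exact two-sided permutation test, the smallest that 3 against 3 allow. The authors' FPKM values imply lengths of 2.44 times the exon length for *ATF7* and 6.75 times for *ATF2*. Whether *ATF7* stands above or below *ATF2* thus depends on the length used, while the difference between the groups (-1.205) does not.

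The JUN family moved in both directions. *JUN*, a gene of 1 annotated transcript (chromosome 1, 58780788 to 58784327, minus strand), encodes the family's strongest activator. It had 783.8, 444.2 and 443.7 CPM in LV-NC and 285.3, 294.1 and 301.9 CPM in LV-*ATF7*. LV-NC replicate 1 was the highest library, and all of LV-*ATF7* lay below all of LV-NC. *JUN* had a log2 difference of -0.92 (SE 0.22, adjusted p = 0.00588), and of -0.62 without LV-NC replicate 1, where it was still called.

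*JUNB*, often set against *JUN* as the weaker activator of the family, was higher (chromosome 19, 12791496 to 12793315, plus strand). It had 571.6, 430.1 and 433.9 CPM in LV-NC and 755.0, 775.2 and 880.7 CPM in LV-*ATF7*. The groups did not overlap although LV-NC replicate 1 was again the highest of its group. *JUNB* had a log2 difference of 0.75 (SE 0.14, adjusted p = 0.00171) and of 0.87 without that library. Of the exon bases of *JUNB*, 14.2% lie in exons of a gene on the other strand, and the strand setting of the counting is not given in the sources used here.

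*JUND*, the member known for steady expression, was not called (chromosome 19, 18279760 to 18281622, minus strand). It had 466.8, 327.3 and 359.1 CPM in LV-NC and 331.2, 355.9 and 404.2 CPM in LV-*ATF7*, with overlapping groups. Its log2 fold change was -0.08 (95% interval -0.42 to 0.27, adjusted p = 0.655) and turned to 0.06 without LV-NC replicate 1.

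In the FOS family, *FOSL1* and *FOSL2* stood at opposite ends. *FOSL1* encodes FRA-1, known for its role in cell migration (chromosome 11, 65892049 to 65900573, minus strand). It had 73.8, 157.5 and 153.3 CPM in LV-NC and 29.03, 34.2 and 36.6 CPM in LV-*ATF7*. LV-NC replicate 1 was the lowest of its group yet lay above every library labeled LV-*ATF7*. *FOSL1* had a log2 difference of -1.95 (SE 0.28, 95% interval -2.58 to -1.31, adjusted p = 4.11e-04), the largest in size of the 9 genes, and of -2.25 without LV-NC replicate 1.

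*FOSL2* encodes FRA-2, a FOS protein tied to keratinocyte differentiation (chromosome 2, 28392448 to 28417312, plus strand). It had 220.9, 191.9 and 207.7 CPM in LV-NC and 389.3, 413.5 and 437.6 CPM in LV-*ATF7*. The groups did not overlap, and the SD over the mean was 7.01% and 5.85%. *FOSL2* had a log2 difference of 0.999 (SE 0.10, 95% interval 0.78 to 1.22, adjusted p = 5.75e-05) and of 1.03 without LV-NC replicate 1.

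*FOSB* (chromosome 19, 45467995 to 45475179, plus strand) encodes another inducible FOS protein. It had 553.3, 259.1 and 271.8 CPM in LV-NC and 196.3, 200.3 and 213.5 CPM in LV-*ATF7*. The groups did not overlap, and LV-NC replicate 1 was far above the rest. *FOSB* had a log2 difference of -0.83 (SE 0.28, adjusted p = 0.0269). It moved to -0.41 without LV-NC replicate 1, where it was called (adjusted p = 5.82e-06), and it was not called when LV-*ATF7* replicate 1, 2 or 3 was left out (adjusted p = 0.0860, 0.0739 and 0.0813). Over the 13 alternatives run the adjusted p ranged from 5.82e-06 to 0.0860.

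*FOS*, the first gene of the family to be induced by serum and growth factors (chromosome 14, 75278774 to 75282230, plus strand), had 691.2, 410.0 and 415.5 CPM in LV-NC and 568.8, 568.6 and 581.9 CPM in LV-*ATF7*. The libraries labeled LV-*ATF7* lay between LV-NC replicate 1 and the other LV-NC libraries. Its log2 fold change was 0.18 (95% interval -0.28 to 0.64, adjusted p = 0.443). Without LV-NC replicate 1 it was 0.45 (standard error 0.06) and was called, with an adjusted p of 3.91e-07, over a range of 3.91e-07 to 0.981 in the 13 alternatives. It was called in 2 of the 13, the other being limma voom with sample quality weights.

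**Figure D2:**
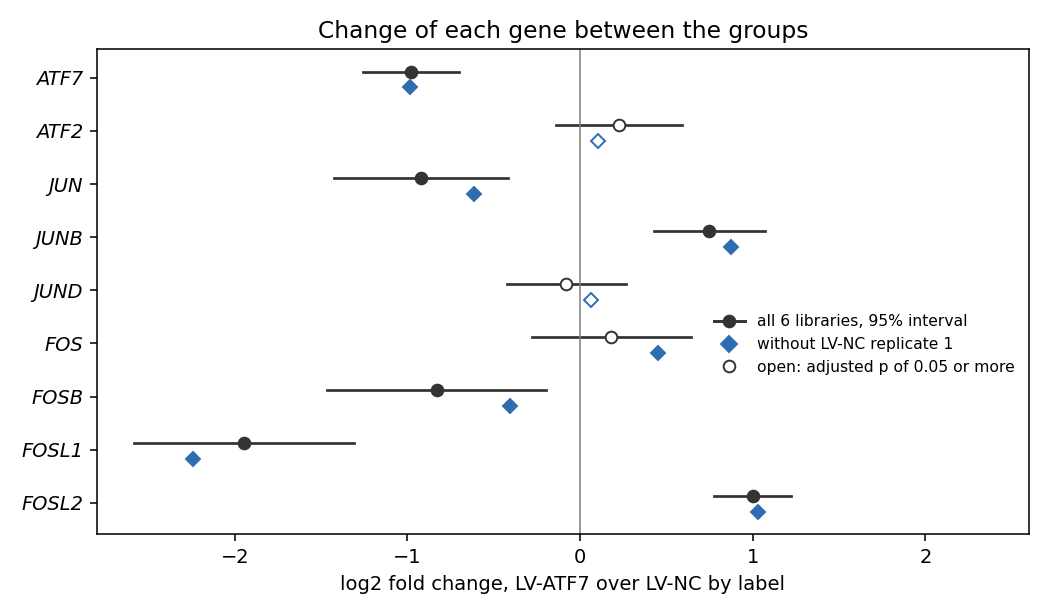
Log2 fold changes of the libraries labeled LV-*ATF7* over LV-NC for the 9 genes. Circles show all 6 libraries with 95% intervals, and diamonds, drawn without intervals, leave out LV-NC replicate 1. Symbols are open where the adjusted p is 0.05 or more. *FOSL1* lies farthest to the left at -1.95 and *FOSL2* farthest to the right at 0.999, and *JUND* changes side at -0.08 and 0.06.

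LV-NC replicate 1 differed from the other LV-NC libraries gene by gene. As a log2 difference from the mean of LV-NC replicates 2 and 3, it was 1.06 for *FOSB*, 0.82 for *JUN* and 0.74 for *FOS*. It was 0.45 for *JUND*, 0.40 for *JUNB* and 0.15 for *FOSL2*. *ATF7* was nearly level at 0.04, and *ATF2* (-0.33) and *FOSL1* (-1.07) were lower. This library was thus the highest of its group for 6 of the 9 genes and the lowest for 2. The SD over the mean within LV-NC was 46.0% for *FOSB*, 36.8% for *FOSL1*, 35.2% for *JUN* and 31.8% for *FOS*, against 4.44%, 11.6%, 2.82% and 1.33% within LV-*ATF7*.

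Levels of different genes were compared as CPM per kb of exon. In LV-NC the order was *JUNB* (262.9), *JUND* (206.3), *JUN* (157.4), *FOS* (156.1), *FOSL1* (67.9), *FOSB* (65.1), *FOSL2* (28.9), *ATF7* (6.24) and *ATF2* (5.46). Neighbors in this order overlapped between libraries from *JUNB* to *FOS*, for *FOSL1* and *FOSB*, and for *ATF7* and *ATF2*. Compared within each library, *JUNB* was above *JUND* and *JUND* above *JUN* in 3 of 3 LV-NC libraries. *JUN* was above *FOS* in 1 of 3, and *FOSL1* above *FOSB* and *ATF7* above *ATF2* in 2 of 3 each. In LV-*ATF7* the order was *JUNB* (441.6), *JUND* (195.3), *FOS* (177.0), *JUN* (83.0), *FOSL2* (57.8), *FOSB* (36.6), *FOSL1* (17.6), *ATF2* (6.38) and *ATF7* (3.16). There *JUND* and *FOS* alone overlapped, and *JUND* was above *FOS* in 3 of 3 libraries. By these lengths *FOSL2* stood below *FOSL1* and *FOSB* in LV-NC and above both in LV-*ATF7*. The authors' FPKM values imply lengths of 1.01 to 6.75 times these exon lengths for the 9 genes, so the order depends on the length used. With those lengths *FOSB* was above *FOSL2* in 1 of the 3 LV-NC libraries.

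The make-up of each family separated the groups, and its sum did not. Within the JUN family, *JUNB* made up 42.3% ± 2.07 of the CPM per kb in LV-NC and 61.3% ± 0.43 in LV-*ATF7* (SD, n = 3 each). The share of *JUN* was 24.7% ± 3.05 in LV-NC and 11.6% ± 0.62 in LV-*ATF7*, and that of *JUND* 33.1% ± 1.42 and 27.1% ± 0.62. The summed level of the family overlapped between the groups, with 626.7 ± 138.3 and 719.8 ± 59.0 CPM per kb (exact permutation test, two-sided, p = 0.30).

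Within the FOS family, *FOSL2* made up 9.20% ± 1.04 in LV-NC and 19.98% ± 0.56 in LV-*ATF7*. *FOSL1* made up 22.6% ± 10.8 in LV-NC and 6.09% ± 0.54 in LV-*ATF7*, with 10.2%, 29.4% and 28.2% in its replicates 1, 2 and 3. The share of *FOS* was 48.3% ± 6.40 and 61.3% ± 1.21, and that of *FOSB* 19.8% ± 5.36 and 12.7% ± 0.18 (SD, n = 3 each). Without LV-NC replicate 1 the mean *FOSB* share in LV-NC was 16.7%, and the difference was -4.07 points in place of -7.16. The summed level was 318.1 ± 56.3 and 289.0 ± 9.04 CPM per kb (p = 0.70, exact permutation test, two-sided). For all 7 shares the groups did not overlap, beside 72.7% of all genes tested by their CPM. The exact permutation test gave p = 0.10 for each share, the smallest p possible. With the lengths implied by the authors' FPKM, the *FOS* share was higher by 7.03 points in place of 12.9 and the groups overlapped (p = 0.40, exact permutation test). Shares of 1 family add to a whole, so they are not independent of each other.

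The log2 ratio of *FOSL1* to *FOSL2*, per exon length, was 0.34, 1.64 and 1.49 in LV-NC and -1.82, -1.68 and -1.66 in LV-*ATF7*. With these lengths *FOSL1* was above *FOSL2* in every LV-NC library and below it in every library labeled LV-*ATF7*. With the lengths implied by the authors' FPKM it was above in 2 of the 3 LV-NC libraries (-0.39 in LV-NC replicate 1), and in CPM with no length in 0 of 3, so the crossing depends on the length while the difference between the groups does not. That of *JUN* to *JUNB* was -0.78 ± 0.24 in LV-NC and -2.41 ± 0.08 in LV-*ATF7* (SD, n = 3 each). Both differences, -2.87 and -1.63, gave p = 0.10 by the exact permutation test. In CPM with no length *JUN* was above *JUNB* in 3 of the 3 LV-NC libraries (log2 ratios 0.455, 0.047 and 0.032) and in 0 of 3 labeled LV-*ATF7*. The order of this pair in LV-NC thus depends on the length too.

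**Figure D3:**
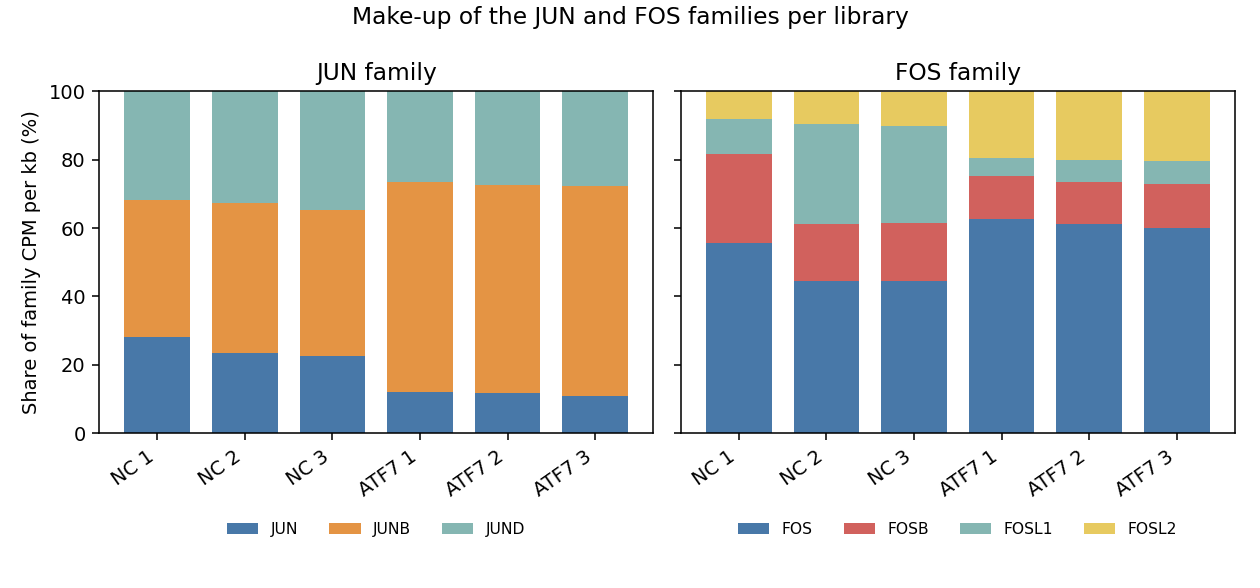
Share of each gene in the summed CPM per kb of exon (%) of the JUN family (left) and of the FOS family (right) in each of the 6 libraries, with NC for LV-NC and ATF7 for LV-*ATF7*. *JUNB* takes more and *JUN* less of the bar in all 3 libraries labeled LV-*ATF7*, *FOSL2* more and *FOSL1* less, and LV-NC replicate 1 has less *FOSL1* than the other LV-NC libraries.

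Other bZIP factors were taken as a list of 41 genes, of which 36 were tested. Of these, 23 were called, 8 of them higher and 15 lower, with a median log2 fold change of -0.23. This count and those of the lists below stand beside 67.6% of all genes tested that were called. *CREB5*, the other relative of *ATF2* and *ATF7*, had 46, 18 and 19 counts in LV-NC and 3, 1 and 0 in LV-*ATF7*, at least 9.27-fold lower with the floor set at 3 counts per library. *JDP2*, which pairs with JUN and represses AP-1, had 112.8, 24.9 and 24.4 CPM in LV-NC replicates 1, 2 and 3 and 80.8, 82.2 and 89.5 CPM in LV-*ATF7*. Its log2 fold change was 0.64 (adjusted p = 0.325 by edgeR), and it was not called. Without LV-NC replicate 1 the log2 fold change was 1.75 and *JDP2* was called (adjusted p = 4.93e-15 by edgeR), as *FOS* was.

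Among called genes of this list without overlap and with a mean of at least 50 counts, *BACH2*, *CEBPD*, *DBP* and *TEF* had the largest changes. *CREB5*, at a log2 fold change of -4.26, had a mean of 14.5 counts and is left out of this order. *CEBPD*, a C/EBP factor of the acute phase and of differentiation, rose from 30.3 ± 6.27 to 429.2 ± 33.9 CPM (SD, n = 3 each), a log2 fold change of 3.82 (adjusted p = 1.66e-06 by edgeR). *BACH2*, a repressor at MAF recognition elements, fell from 12.3 ± 0.73 to 0.51 ± 0.10 CPM (log2 fold change -4.59, adjusted p = 2.02e-06). *DBP* and *TEF*, PAR bZIP factors of the circadian output, rose by 2.52 and 2.48 on the log2 scale (adjusted p = 1.11e-04 and 8.26e-06). *ATF3*, a stress-induced repressor that pairs with JUN, fell from 649.0 ± 172.6 to 156.3 ± 5.29 CPM (log2 fold change -2.05, adjusted p = 3.41e-05), and it stands in 3 of the lists used here.

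Of 28 kinases that act on AP-1 factors or lie upstream of those that do, 17 were called, 9 higher and 8 lower, with a median of 0.18. *MAPK10*, the JNK gene known from neurons, rose from 0.76 ± 0.37 to 8.43 ± 1.33 CPM (log2 fold change 3.45, adjusted p = 4.34e-05). *MAPK3*, which encodes ERK1, rose by 2.73 (log2, adjusted p = 5.93e-06), and *MAPK12*, a p38 gene, by 1.94 (adjusted p = 1.18e-05). *MAP2K3*, a kinase that activates p38, fell from 513.1 ± 126.6 to 130.0 ± 10.7 CPM (log2 fold change -1.98, adjusted p = 5.09e-05). Among the other JNK genes, *MAPK8* had a log2 fold change of -1.50 (adjusted p = 1.46e-05) and *MAPK9* 0.20 (adjusted p = 0.0958), named after their values were seen.

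Serum response factor and its partners drive *FOS* transcription. Of these 6 genes, 4 were called. *ELK1* had a log2 fold change of -0.88 (adjusted p = 0.00267), and *MRTFB* (1.23, adjusted p = 3.78e-05), *ELK4* (0.65, adjusted p = 0.0146) and *ELK3* (0.35, adjusted p = 0.0292) were higher. Without LV-NC replicate 3 or without LV-*ATF7* replicate 1 the number called was 2.

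Of 16 genes for cofactors and turnover of AP-1 proteins, 9 were called, 3 higher and 6 lower, with a median of -0.01. *CUL4A*, a scaffold of the ubiquitin ligase that degrades JUN, had a log2 fold change of 1.14 (adjusted p = 1.43e-05). *TAF12*, a TFIID subunit known to bind ATF7, fell by 1.0 (adjusted p = 7.23e-05). *CREBBP*, an acetyltransferase coactivator, fell by 0.57 (adjusted p = 0.00451).

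Immediate early genes other than the FOS and JUN genes were mostly lower where called. Of 20 tested, 14 were called, 3 higher and 11 lower, with a median of -0.33. *CCN2*, a matricellular protein gene, fell from 21.8 ± 2.22 to 0.72 ± 0.14 CPM (log2 fold change -4.91, adjusted p = 1.39e-06). *KLF2* had -3.02 (adjusted p = 1.67e-04) and *GADD45B*, a stress gene upstream of p38 and JNK, -2.60 (adjusted p = 1.36e-05). Summed over the list, LV-NC replicate 1 had 6776 CPM, the other LV-NC libraries 4324 and 4435 CPM, and LV-*ATF7* 3580 to 3739 CPM. The library that was high for *FOS*, *FOSB* and *JUN* was thus also high for this list. Without it, 17 were called, 6 higher and 11 lower, beside 80.1% of all genes tested.

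Known targets of AP-1 were tested for 19 of 22 listed genes. All but *HBEGF* were called, 11 higher and 7 lower, with a median of 1.34. Over all genes tested 67.6% were called and the median was 0.00. The collagenase genes *MMP1* and *MMP13* rose, *MMP1* from 0.22 ± 0.04 to 15.2 ± 2.10 CPM (log2 fold change 6.08, adjusted p = 1.39e-06) and *MMP13* from 6.08 ± 1.45 to 61.9 ± 4.88 CPM (3.34, adjusted p = 3.64e-06). *FLG*, the filaggrin gene of the granular layer, rose by 3.46 (adjusted p = 1.07e-04). *PLAUR*, the urokinase receptor gene, fell from 87.6 ± 33.6 to 8.58 ± 2.25 CPM (-3.35, adjusted p = 7.04e-05), while *PLAU*, urokinase itself, rose from 62.8 ± 3.04 to 574.3 ± 27.0 CPM (3.19, adjusted p = 7.90e-07). Protease and receptor of 1 system thus moved apart.

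Of 14 listed targets of ATF2 or ATF7, 12 were tested and all 12 were called, 5 higher and 7 lower, with a median of -0.63. Leaving out any 1 of the libraries labeled LV-*ATF7* gave 9 called, where 58.3% to 59.7% of all genes tested were called. Without LV-NC replicate 2 or without LV-NC replicate 3 the number was 11. Beside *PLAU* and *ATF3*, *DUSP4*, a phosphatase of MAP kinases, rose by 1.81 (adjusted p = 2.01e-05). *TGFB2* rose from 1.51 ± 1.09 to 5.28 ± 0.79 CPM (log2 fold change 1.798, adjusted p = 0.00670). *ATF3*, *DUSP1*, *PLAU* and *CCND1* are shared with other lists. Counts in the lists are to be read against the 67.6% of all genes called, and no list was tested as a set.

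**Figure D4:**
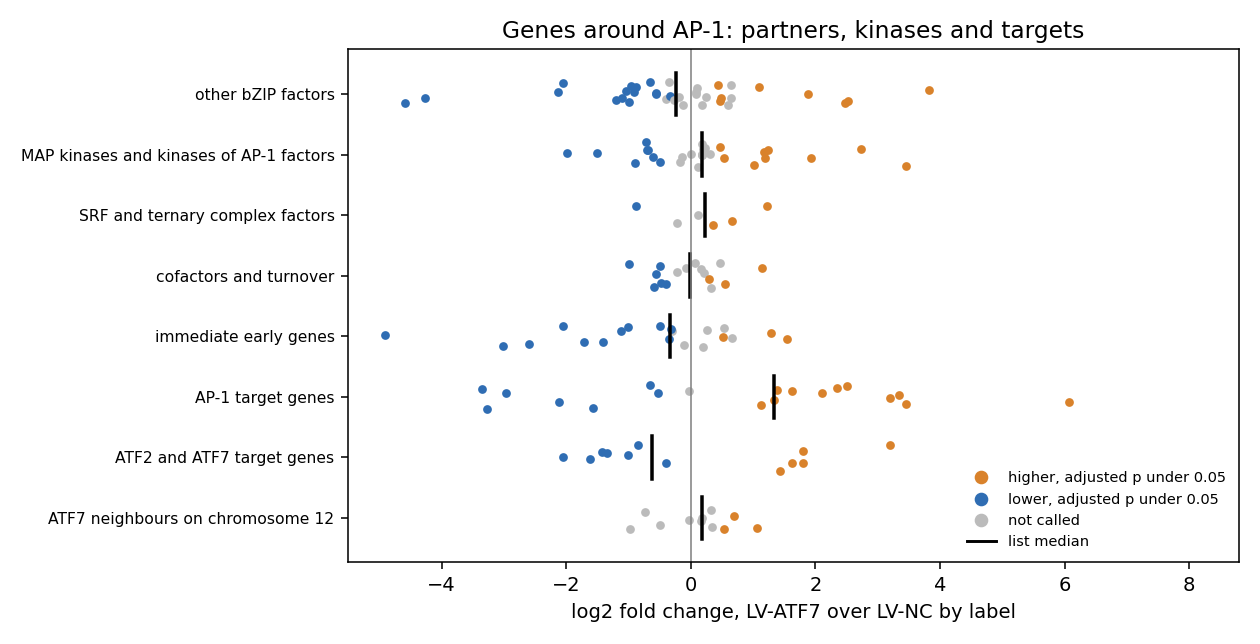
Log2 fold changes of the libraries labeled LV-*ATF7* over LV-NC for the genes of 8 lists (the cell type markers are not drawn), with a point per gene, orange and blue for called genes, gray for others, and a bar at the list median. Among the lists drawn, the AP-1 targets have the highest median at 1.34 and the ATF2 and ATF7 targets the lowest at -0.63, and all but that of the *ATF7* neighbors have called genes on both sides of 0.

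The genes closest to *ATF7* over the 6 libraries, by the root mean square difference of centered log2 CPM among 11175 genes, were *CREB3L2* (0.05), *CHRNA10* (0.05), *PCSK7* (0.06), *SRCAP* (0.06) and *ISG20L2* (0.06). *CREB3L2*, itself a bZIP factor, fell from 61.7 to 31.6 CPM. Among those closest to *FOSL1* were *DRAP1* (0.09), *OSBP2* (0.10), *LYPD3* (0.10) and *EMC9* (0.11). *DRAP1* had 139.2, 275.3 and 264.8 CPM in LV-NC and 56.6, 55.4 and 64.0 CPM in LV-*ATF7*, and like *FOSL1* it was lowest of LV-NC in replicate 1. These are descriptions over 6 libraries that share their groups.

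Markers of the cell type moved with the groups too. All 16 keratinocyte markers had a row, and 12 were called, 11 higher and 1 lower. Without LV-NC replicate 1 all 16 were called, 12 higher and 4 lower, beside 80.1% of all genes tested. The lower ones were *KRT14*, *KRT6A*, *KRT17* and *CDH1* (log2 fold changes -2.96, -2.29, -1.29 and -0.37). Summed, they had 2709 to 3706 CPM in LV-NC and 9651 to 10440 CPM in LV-*ATF7*. *KRT5*, the basal keratin gene, had 99.96 to 355.5 CPM in LV-NC and 3215 to 3622 CPM in LV-*ATF7*, and *TP63*, the regulator of basal keratinocytes, 12.6 to 18.3 and 219.0 to 238.1 CPM. *KRT14*, the partner keratin of *KRT5*, went the other way, with 0.37, 12.5 and 11.3 CPM in LV-NC and 1.45, 1.38 and 1.83 CPM in LV-*ATF7* (log2 fold change -2.37, adjusted p = 0.0461 by edgeR), and LV-NC replicate 1 was below every other library. Of the endothelial markers 2 of 5 had a row, summing to 1.12 to 5.50 CPM in LV-NC and 84.6 to 89.9 CPM in LV-*ATF7*, nearly all of it *CDH5*, with no row for *PECAM1*, *KDR* or *TEK*. Of 8 monocyte markers 3 had a row, summing to 5.57 to 8.13 and 9.38 to 12.7 CPM, and they did not move one way: the log2 fold change was 2.33 for *CD14* (adjusted p = 2.84e-05), -2.17 for *CSF1R* (adjusted p = 3.90e-04) and -0.41 for *ITGAM* (adjusted p = 0.530, called at -0.90 without LV-NC replicate 1). *PTPRC*, *CD68* and *LYZ* had no row. Of 8 fibroblast markers 3 had a row (35.1 to 42.7 and 17.4 to 21.8 CPM), and of 6 melanocyte markers 2 (17.5 to 24.8 and 12.2 to 13.0 CPM). The genes of these 2 lists did not move one way either. Over all 6 libraries, 2 fibroblast markers were tested and 1 was called, lower. Of the 2 melanocyte markers tested, 1 was called higher and 1 lower. Without LV-NC replicate 1 the log2 fold change was -1.06 for *COL1A1*, -5.22 for *THY1* and 8.62 for *DCN*. *DCN* had 0 CPM in the other LV-NC libraries, so the size of its value has no measured base. In the same fit the log2 fold change was 1.04 for *PMEL* and -1.06 for *MITF*. The part of these shifts in the AP-1 results was not tested, and in bulk libraries fewer cells of a type and less RNA per cell cannot be told apart.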

How the data were processed

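Poly(A) RNA from 6 HaCaT libraries was sequenced, and the authors deposited unnormalized counts of reads on each gene beside FPKM values, per the file headers. The lowest total count of a gene in the deposited table was 51 over the 6 libraries. A gene without a row was therefore not read as absent, and shares of all genes refer to the genes of this table. The deposited FPKM values were used for the lengths they imply and for no test. The submitters' processing notes name GRCh38. The aligner, counter, annotation and strandedness are not given in the sources used here. The table's own fold changes and p-values were not used.

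Groups followed the labels. Counts were scaled by TMM, filtered with filterByExpr and tested with edgeR 4.0.16 (glmQLFit, glmQLFTest; R 4.3.3) without covariates over 12462 of 12499 genes, with a threshold of 0.05. Total counts were 16686472 to 20562768. The standard error is the log2 fold change over the square root of F. Gene positions, exon lengths and overlaps came from GENCODE release 29, and shares were tested by exact two-sided permutation. Alternatives were upper quartile scaling or library size alone, DESeq2 1.42.0, limma 3.58.1 voom with sample quality weights, a minimum of 10 counts in every library or no filter, a replicate block, each library left out, and for shares other lengths or none. The main edgeR fit alone was tested on simulated counts. Few genes were changed in them and no library stood apart, unlike in these data. Figures used matplotlib 3.10.9 under Python 3.11.15.

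The genes and lists were chosen with earlier results of these data known. Named were the 9 genes with a row, *CREB5*, *JDP2*, all called neighbors of *ATF7*, of each other list up to 4 genes with the largest log2 fold change among called genes without overlap and with a mean of at least 50 counts, and the 5 genes most like *ATF7* and *FOSL1*. Some genes that this rule names are not reported here. *ESPL1*, *MAPK8*, *MAPK9*, *HBEGF*, *DUSP1*, *CCND1* and the cell type markers named were chosen after their values were seen.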

Additional observations from a re-analysis of the deposited data

How the results depend on the processing

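Of 414 alternative values over 36 results, 394 met the rule for an unchanged result. The rule was the same direction and side of the threshold for fold changes, and little movement for counts and comparisons of levels. For the 7 shares and the ratio of *ATF7* to *ATF2* it was the direction alone. Their exact permutation p cannot fall under 0.10. *ATF7* stayed between -1.15 and -0.89 on the log2 scale with an adjusted p of at most 0.00174 in 13 alternatives. The log2 fold change of *JUND* turned to 0.029 with limma voom and sample quality weights and ran from -0.22 to 0.063 over the fits that left out 1 library (0.063 without LV-NC replicate 1), and that of *FOS* became called at 0.45 with either. *FOSB* was not called without any 1 of the libraries labeled LV-*ATF7*, and ranged from -1.06 to -0.41 over the fits that left out 1 library. Library size only shifted the median of all genes by -0.16, and 42.4% of its calls were higher against 51.3%. The 7 shares kept their direction under every length. With no length the difference was -2.43 points for *JUND* (in place of -5.97), 5.28 for *FOS* (12.9), -12.5 for *FOSB* (-7.16) and -8.91 for *FOSL1* (-16.5). With lengths implied by FPKM it was 7.03 for *FOS* and -4.65 for *FOSB*, and without LV-NC replicate 1 it was -4.07 for *FOSB*. In 2 comparisons of levels chosen after seeing the data, the mean log2 ratio in LV-NC of *FOSL1* to *FOSL2* (1.16) was 0.43 with lengths implied by FPKM and -0.77 with none, and that of *FOSB* to *FOSL2* (1.08) was -0.54 with lengths implied by FPKM, as the lengths themselves bring about. For the other changes the cause was not tested.

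Among the lists, sample quality weights called 14 cofactor and turnover genes, 6 *ATF7* neighbors and 2 fibroblast markers. No filter called 2 fibroblast markers, and at least 10 counts in every library called 1 monocyte and 1 endothelial marker. Leaving out 1 library gave 2 to 5 SRF and ternary complex genes, 3 to 5 neighbors and 1 to 3 fibroblast markers. Correlations between the groups of deviations from the group means were 0.07, -0.04 and 0.09 for replicates 1, 2 and 3. LV-NC replicate 1 stood apart and enters its group mean, so these values cannot decide whether replicate numbers pair the libraries. With the replicate block, 8210 genes were called against 8429.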
